A study of Saccharomyces cerevisiae with 17 samples.

Results

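The 10 genes described here encode enzymes of purine synthesis and of the cytosolic folate reactions that feed it. They are *ADE1*, *ADE2*, *ADE4*, *ADE6*, *ADE8*, *ADE13* and *ADE17* of the route to inosine monophosphate, with *SHM2*, *ADE3* and *MTD1* of cytosolic one-carbon metabolism. They were taken by name from the 6644 genes that both deposited tables of *Saccharomyces cerevisiae* RNA levels hold. All 10 had a value in each of the 15 columns and entered the fit of 6241 genes.

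The series asks what moving nucleosomes to chosen sites does to transcription. Its tool is Chd1-Ume6, in which the nucleosome-sliding enzyme Chd1 is joined to the DNA-binding part of Ume6, a repressor that recruits the histone deacetylase Rpd3 and the remodeler Isw2. Ribosomal RNA was removed from total RNA and strand-specific libraries were sequenced from cells at an optical density of 0.4 to 0.6. The 10 groups were wild type, *isw2*, *rpd3*, *isw2 rpd3*, *ume6*, *ume6* with Chd1-Ume6, *ume6* with catalytically dead Chd1-Ume6, wild type with Chd1-Ume6, *rrp6*, and *rrp6* with Chd1-Ume6. Every lower-case gene name stands for a deletion, and Rrp6 is a nuclease of the nuclear exosome that degrades RNA. The strain background was W303 in 9 groups and a W303 prototroph in the *isw2 rpd3* group. The labels give 1 or 2 isolates a group and do not give the medium, the mating type, the *ADE2* allele or the promoter of the fusion.

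Wild type, *isw2*, *rpd3*, *isw2 rpd3* and *ume6* with the dead fusion each had 1 column, all of them in the first deposited table. The *ume6* deletion, *ume6* with Chd1-Ume6 and wild type with Chd1-Ume6 had 1 column in that table and 1 in the deposited workbook, which also held 2 columns each for *rrp6* and for *rrp6* with Chd1-Ume6. The wild type column looks like an average that the authors took before deposit, since 15.6% of 1003 values were whole in thousandths of FPKM as deposited and 93.3% were after multiplying by 6. All comparisons with wild type rest on that column. Separate cultures are not stated for the isolates, and the p-values therefore cover only how far these columns lie apart, perhaps for technical reasons.

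De novo purine synthesis builds the purine ring on phosphoribosyl pyrophosphate and ends in inosine monophosphate, from which AMP and GMP are made. Formyl groups carried by tetrahydrofolate are used at a pair of its steps, which ties the pathway to serine and glycine metabolism. In *S. cerevisiae* these genes are controlled together by the Myb-type factor Bas1 and the homeodomain factor Pho2, and Bas1 binds the sequence TGACTC. Adenine in the medium lowers their expression. The pathway intermediates SAICAR and AICAR are known to promote the pairing of Bas1 with Pho2. Standard W303 strains carry the nonsense allele ade2-1, while a prototroph can make its own adenine.

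In the 400 bases before the start codon, TGACTC on either strand was present in 10 of the 10 genes. It was present in 620 of 6001 genes of the R64 reference annotation, or 10.3%. The 10 windows held 17 matches, and 6 genes had at least 2 of them, against 1.08% of all genes. The sequences of the 3 genes whose RNA varied most are shown first, and those of *ADE8*, whose RNA varied by no more than 2.19-fold, are shown after them. All were read from the R64 reference genome of strain S288C in the 5′ to 3′ direction of the gene, with the motif in capitals. GAGTCA is TGACTC read on the other strand.

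ADE17: atttgcagttttTGACTCttttttccttag
ADE17: ccagaaatgaatTGACTCctctcataactt
ADE2: tatgctgacaaaTGACTCttgttgcatggc
ADE2: atactaagtgatTGACTCttgctgaccttt
MTD1: ctctttttggcgGAGTCAgcccgaatcaac
MTD1: attatgatatatTGACTCagtagaaaagga
ADE8: gattcgaatgagTGACTCgttgctagtgac
ADE8: actcgttgctagTGACTCtgacctgttttt

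The *ADE17* stretches lie at chrXIII:509570-509599 and chrXIII:509440-509469 on the minus strand, with the motif ending 302 and 172 bases before the start codon. Those of *ADE2*, also on the minus strand, lie at chrXV:566370-566399 and chrXV:566327-566356, 191 and 148 bases before the start codon. The *MTD1* stretches are at chrXI:590103-590132 and chrXI:590209-590238 on the plus strand, 275 and 169 bases before it. Those of *ADE8* overlap each other at chrIV:1289023-1289052 and chrIV:1289009-1289038 on the minus strand, 176 and 162 bases before it. The longer motif TGACTCA, which contains TGACTC and is the form bound by the amino acid regulator Gcn4, was in 1 of the 10 windows, the second *MTD1* stretch, against 3.38% of genes. AGCCGCC, the core of the URS1 element that Ume6 binds, was in 0 of the 10, against 3.2% of genes, and the authors' table enters no motif for any of the 10. A match in letters is a description of the window and shows no binding.

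**Figure D1:**
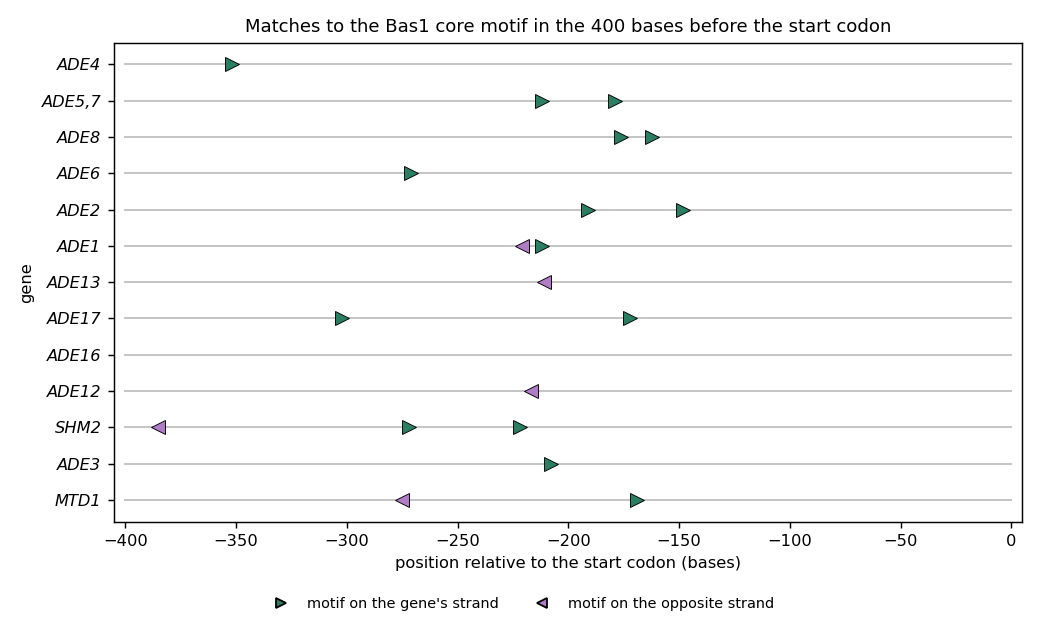
Positions of TGACTC in the 400 bases before the start codon of the 10 genes and of *ADE5,7*, *ADE12* and *ADE16*, with distance to the start codon in bases on the x axis and 1 line a gene. Triangles pointing right are matches on the gene's strand and those pointing left are on the other strand. *ADE16* has 0 matches and its paralog *ADE17* has 2.

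All 10 genes have 1 exon in R64, and none overlaps another annotated gene. *ADE17* is at chrXIII:507502-509280 and *ADE2* at chrXV:564476-566191, both on the minus strand. *MTD1* is at chrXI:590395-591357 on the plus strand. 3 of the 10 have a paralog. A read within the coding sequences that is longer than the longest shared run cannot match both exactly. The coding sequences of *ADE17* and *ADE16* are identical at 74.7% of positions with a longest shared run of 19 bases, *SHM2* and *SHM1* at 64.4% with a run of 22, and *ADE3* and *MIS1* at 67.1% with a run of 20.

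*ISW2*, *RPD3* and *RRP6* were at or below 1.69 FPKM (fragments mapped, scaled to transcript length and to the library's total) or had no value in the strains that lack them. *UME6* was at 0.0536 FPKM or had no value in *ume6*, and between 65.5 and 113 FPKM in *ume6* with a fusion, which carries part of it. *CHD1* was between 276 and 1608 FPKM in the 7 columns with a fusion. Depth is unknown because the files hold FPKM and no counts. Replicate columns correlated with r between 0.945 and 0.974 over 6241 genes. Of the 10 genes, 1 was 2-fold or more apart between the columns of a group, *ADE2* in *ume6*. Of 6 marker genes of auxotrophic strains, *HIS3* and *ADE2* were higher in the *isw2 rpd3* column than in any other, with *HIS3* at 569 FPKM there and between 10.2 and 43.4 elsewhere. *LEU2*, *TRP1*, *URA3* and *CAN1* lay within the range of the other columns. The double deletion and the prototroph background are found in the same single column, so their contributions to any value of that column cannot be told apart. *URA3*, another marker gene, rose with the active fusion by 2.53 in *ume6* (limma adjusted p = 0.00689) and by 1.88 in *rrp6* (limma adjusted p = 0.0227), and by 3.56 with the dead fusion (limma adjusted p = 0.00354), on the log2 scale. Whether these marker differences have a part in the values below was not tested.

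*ADE17* had the widest range of the 10 genes. It encodes one of the isozymes that carry out the last steps to inosine monophosphate, formyl transfer to AICAR and ring closure. Its level was 40.2 FPKM in wild type, 42.9 in *isw2*, 36.9 in *rpd3* and 267 in *isw2 rpd3*. In *ume6* the *ADE17* level was 80.0 and 96.4, and with the dead fusion it was 65.0. With Chd1-Ume6 it was 36.9 and 29.5 in *ume6*, 25.6 and 27.7 in wild type, and 51.9 and 47.8 in *rrp6*. The lowest values were those of *rrp6* without the fusion, at 19.4 and 13.0. The *isw2 rpd3* column was 2.77 times the next highest, and the *ume6* columns lay above those of every other group but *isw2 rpd3*. Wild type, *isw2*, *rpd3* and *ume6* with Chd1-Ume6 all lay between 29.5 and 42.9 FPKM.

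*ADE16* encodes the other isozyme of the same steps and did not share this range. It lay between 79.3 and 121 FPKM in all 15 columns, a 1.53-fold range against 20.5-fold for *ADE17*. *ADE17* was above *ADE16* in 1 column, *isw2 rpd3*, where the levels were 267 and 119 FPKM. In *rrp6* the order was most uneven, with 19.4 and 13.0 FPKM of *ADE17* beside 110.3 and 102 of *ADE16*. *ADE16* was called in 0 of the 12 comparisons.

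**Figure D2:**
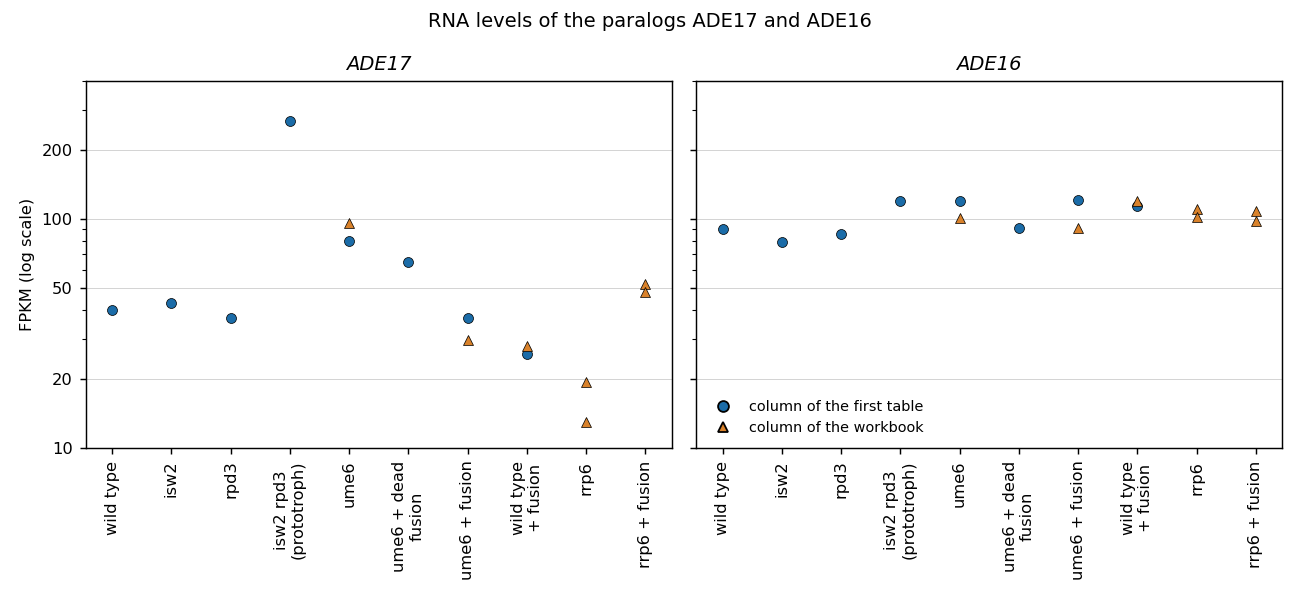
FPKM of *ADE17* (left) and *ADE16* (right) on a log scale in the 15 columns by group, with circles for columns of the first table and triangles for columns of the workbook. *ADE17* runs from 13.0 to 267 FPKM, and *ADE16* stays between 79.3 and 121.

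*ADE2* encodes the aminoimidazole ribotide carboxylase, whose loss turns yeast colonies red. It was at 45.3 FPKM in wild type, 41.6 in *isw2*, 16.9 in *rpd3* and 113 in *isw2 rpd3*. It was at 28.5 and 13.7 in *ume6*, 26.2 with the dead fusion, 22.4 and 15.6 in *ume6* with Chd1-Ume6, and 22.3 and 15.2 in wild type with Chd1-Ume6. In *rrp6* it was at 14.9 and 13.0, and at 26.0 and 18.0 in *rrp6* with Chd1-Ume6. The *isw2 rpd3* column stood above all others, and wild type and *isw2* came next. In each group with a column in both tables the workbook column was the lower. RNA level alone does not show which allele a strain carries.

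*MTD1* encodes the cytosolic NAD-dependent methylenetetrahydrofolate dehydrogenase. Its level was 51.6 FPKM in wild type, 43.6 in *isw2*, 24.5 in *rpd3* and 92.4 in *isw2 rpd3*. It was 53.4 and 41.2 in *ume6*, 40.8 with the dead fusion, 26.2 and 16.2 in *ume6* with Chd1-Ume6, and 39.8 and 21.3 in wild type with Chd1-Ume6. In *rrp6* it was 34.3 and 27.9, and with Chd1-Ume6 there it was 67.3 and 42.8. Among *ume6* strains the columns with the active fusion were the lowest, and in *rrp6* they were above both columns without it.

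*ADE4* encodes the amidotransferase of the committed step and ran from 51.7 to 141.5 FPKM. *ADE8*, the glycinamide ribotide formyltransferase gene, ran from 45.5 to 99.5, and *ADE6*, which encodes the following amidotransferase, from 118 to 247. *ADE1*, the SAICAR synthetase gene, lay between 61.5 and 192 FPKM. *ADE13* encodes the lyase that acts both before AICAR and in AMP synthesis, and lay between 125 and 261. These 5 genes varied between 2.08-fold and 3.12-fold over the 15 columns. *ADE4*, *ADE6*, *ADE1* and *ADE13* were highest in *isw2 rpd3*, while *ADE8* was highest in *rrp6*. For *ADE6* the wild type column was close behind, at 243 FPKM beside 247.

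*SHM2* encodes the cytosolic serine hydroxymethyltransferase, which passes a carbon from serine to tetrahydrofolate. It was at 470.0 FPKM in *isw2 rpd3* and between 134 and 286 in the other columns. *ADE3* encodes the cytosolic synthase that interconverts the folate forms, formyl-tetrahydrofolate among them. It was the only member that was highest in wild type, at 346 FPKM, and it was at 188 in *isw2 rpd3*. Both lay above *MTD1* on the per-length FPKM scale.

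**Figure D3:**
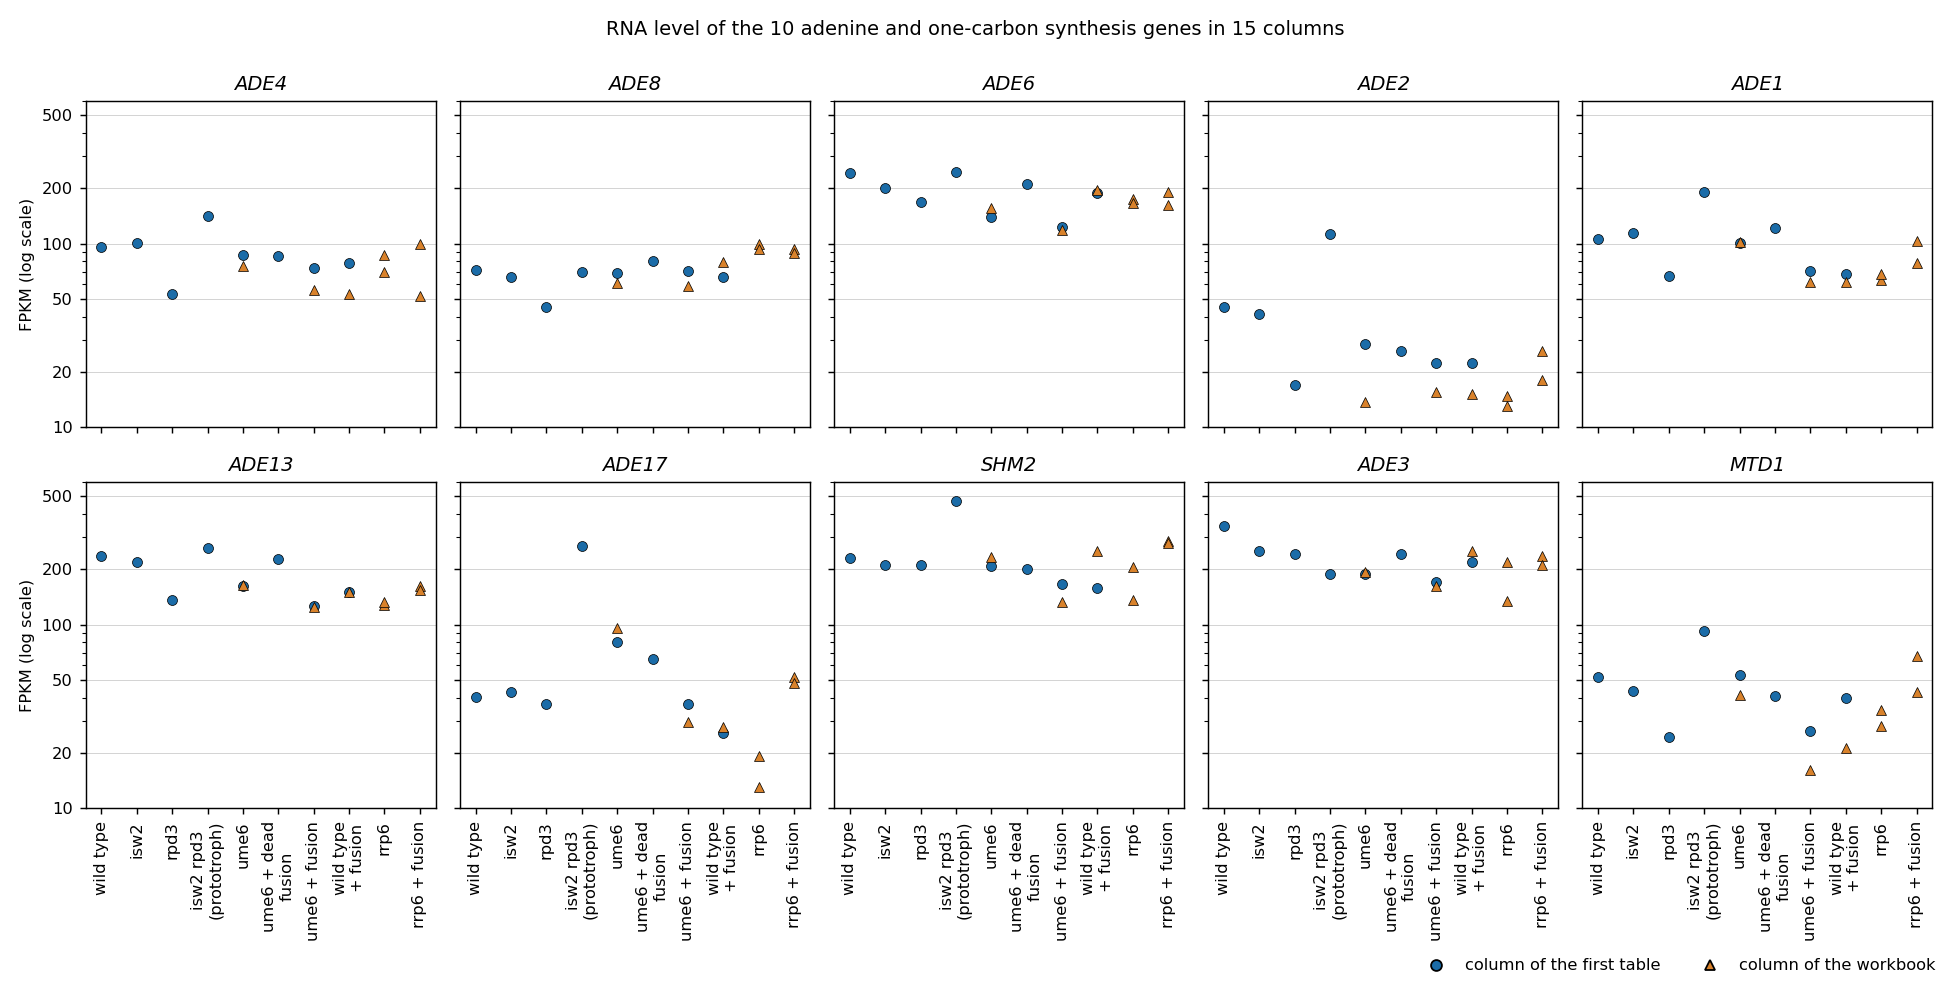
FPKM of the 10 genes on a log scale in the 15 columns by group, in the order of the pathway, with circles for the first table and triangles for the workbook. The *isw2 rpd3* column is the highest for 8 of the 10 genes, and *ADE8* and *ADE3* are the exceptions. How often other genes are highest in that single column was not counted.

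Loss of Isw2, Rpd3 or both asks how the partners of Ume6 act on RNA levels. In *isw2 rpd3*, *ADE17* was 6.50-fold above wild type (log2 change 2.70 ± 0.35 SE, limma adjusted p = 0.00634, 1 column against 1). It was the 1 member called among the 10, where 3.8% of all 6241 genes were called and 1.76% were called higher. A call here means a Benjamini-Hochberg adjusted p under 0.05 over all genes, with changes on the log2(FPKM + 1) scale. In bulk RNA a change in every cell and a larger change in some cells cannot be told apart. For *ADE2* the change was 1.29 ± 0.34 SE (adjusted p = 0.0831), for *SHM2* it was 1.02 ± 0.40 SE (adjusted p = 0.210) and for *ADE3* it was -0.88 ± 0.36 SE (adjusted p = 0.225). The median over the 10 genes was 0.69, and the median over all genes was 0.06. With 1 column a group, the error comes wholly from the groups with 2 columns.

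Against *rpd3* in place of wild type, *ADE17* and *ADE2* were called in *isw2 rpd3*, where 0.417% of all genes were called. *ADE17* was 7.07-fold higher (2.82 ± 0.35 SE, limma adjusted p = 0.0170) and *ADE2* was 6.35-fold higher (2.67 ± 0.34 SE, limma adjusted p = 0.0215). *MTD1* differed by 1.87 ± 0.37 SE (adjusted p = 0.132) and *ADE1* by 1.51 ± 0.29 SE (adjusted p = 0.129). The *ADE2* call was lost without either *ume6* with Chd1-Ume6 column (adjusted p = 0.0554 and 0.0567) and without the table term (adjusted p = 0.126), and both calls were lost after quantile normalization (adjusted p = 0.0530). The median over the 10 genes was 1.28 beside 0.14 over all genes.

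Neither single deletion had a called member. In *rpd3*, all 10 genes were below wild type, as 58.2% of all genes were, though *SHM2* was 0.03 above it after quantile normalization. The changes ran from -1.37 ± 0.34 SE for *ADE2* (adjusted p = 0.141) and -1.04 ± 0.37 SE for *MTD1* (adjusted p = 0.310) to -0.12 for *ADE17*. By limma 0 of 10 were called, where 0.881% of all genes were. An unadjusted p under 0.05 was reached by 3 of 10, and by 722 of all 6241 genes. The median of the 10 was -0.65, and that of all genes was -0.09. In *isw2* the 10 changes lay between -0.46 and 0.11, with 0 of 10 called by limma, where 0.016% of all genes were. None of the 10 had an unadjusted p under 0.05, against 82 of all 6241 genes.

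**Figure D4:**
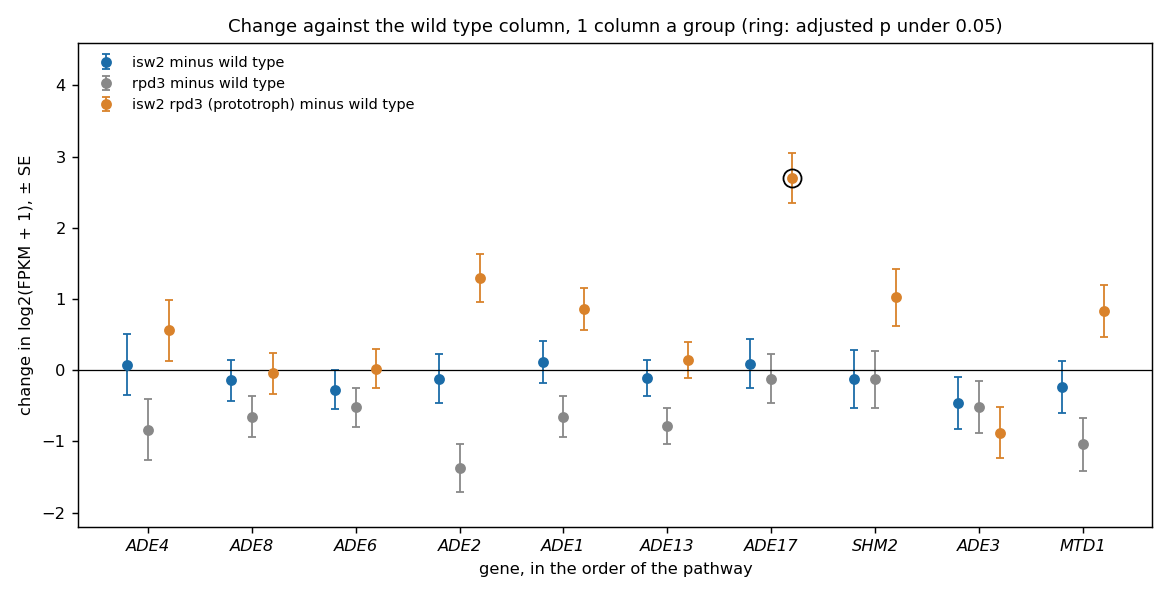
Change in log2(FPKM + 1) against the wild type column in *isw2*, *rpd3* and *isw2 rpd3* for the 10 genes in pathway order, with bars for ± SE from limma and a ring for an adjusted p under 0.05. *ADE17* in *isw2 rpd3* is the only ringed point at 2.70, and the *rpd3* points lie between -1.37 and -0.12.

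Removing Ume6 asks which genes the repressor holds down. No member was called in *ume6* against wild type by limma, where 2.13% of all genes were. There were 5 of 10 at an unadjusted p under 0.05, against 1205 of all 6241 genes. *ADE17*, at 80.0 and 96.4 FPKM beside 40.2 in wild type, changed the most, by 1.10 ± 0.32 SE (adjusted p = 0.110). *ADE3* stood at -0.89 ± 0.33 SE (adjusted p = 0.193), *ADE2* at -0.82 ± 0.31 SE (adjusted p = 0.204) and *ADE6* at -0.74 ± 0.25 SE (adjusted p = 0.154). The median of the 10 was -0.13.

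Putting Chd1-Ume6 into *ume6* cells asks what targeted sliding does where native Ume6 is absent. All 10 changes were below 0, as were 41.3% of those of all genes, with a median of -0.35 beside 0.06, and 0 of 10 were called by limma, where 0.224% of all genes were. At an unadjusted p under 0.05 there were 3 of 10, against 584 of all 6241 genes. *ADE17* stood at -1.39 ± 0.24 SE (adjusted p = 0.0765), and was 1.10 lower on the log2 scale in the first table and 1.68 lower in the workbook. *MTD1* stood at -1.15 ± 0.26 SE (adjusted p = 0.104), with 1.00 and 1.30 lower in the tables. In 8 of the 10 genes both columns with the fusion were below both columns without it, against 13.9% of all genes, and *ADE2* and *ADE8* were the genes whose columns overlapped. Without the *ume6* column of the first table *ADE2* stood at 0.17 and *ADE8* at 0.08, and without 1 of the fusion columns they stood at up to 0.05 and 0.14.

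Catalytically dead Chd1-Ume6 is the control for binding without sliding, and it had 1 column. *CHD1* was at 1608 FPKM there, and at 836 and 1075 in *ume6* with the active fusion, so the fusions were not matched in RNA level. Against *ume6* the 10 changes lay between -0.51 for *MTD1* and 0.54 for *ADE6*, with 0 called by limma, where 0.0481% of all genes were. Of the 10, 0 were at an unadjusted p under 0.05, against 459 of all 6241 genes. Active against dead fusion gave 10 of 10 changes below 0, against 42.5% of all genes, from -0.97 ± 0.32 SE for *ADE17* (adjusted p = 0.224) and -0.85 ± 0.23 SE for *ADE13* (adjusted p = 0.153) to -0.13 for *ADE2*. Without the active fusion column of the first table *ADE2* stood at 0.05. None was called by limma, where 0.353% of all genes were, and 4 of 10 were at an unadjusted p under 0.05, against 888 of all 6241 genes. Both comparisons share columns with the preceding one and are not independent of it.

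Wild type with Chd1-Ume6 keeps native Ume6 beside the fusion. Against the wild type column 9 of 10 changes were below 0, against 42.8% of all genes, with *ADE8* at 0.03, a value that was below 0 after quantile normalization and after median ratio scaling. The changes of *ADE2* and *ADE13* were -0.91 ± 0.31 SE and -0.65 ± 0.23 SE (adjusted p = 0.522 and 0.526). None was called by limma, where 0.016% of all genes were, and 3 of 10 were at an unadjusted p under 0.05, against 537 of all 6241 genes. Without the column of the first table, *SHM2* stood at 0.21 in place of -0.28.

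Strains without Rrp6 show RNA that the nuclear exosome would otherwise degrade. *ADE17* rose 3.01-fold when Chd1-Ume6 was present in *rrp6*, from 19.4 and 13.0 FPKM to 51.9 and 47.8 (log2 change 1.59 ± 0.24 SE, limma adjusted p = 0.0351, n = 2 against 2, higher in both columns). It was the 1 member called, where 0.705% of all genes were called and 0.609% were called higher. *MTD1* changed by 0.77 ± 0.26 SE (adjusted p = 0.215), *SHM2* by 0.75 ± 0.29 SE (adjusted p = 0.268) and *ADE2* by 0.60 ± 0.24 SE (adjusted p = 0.295). In 6 of the 10 genes both fusion columns lay above both *rrp6* columns, against 25.4% of all genes, and in 1, *ADE8*, both lay below, against 14.7%. The median of the 10 was 0.42 and that of all genes 0.03. The *ADE17* call was kept in 1 of 10 fits that each left out 1 column, the one without *rrp6* library 1 (adjusted p = 0.0267), and in the others the adjusted p reached 0.185 with a change of at least 1.32. It was also lost after median ratio scaling (adjusted p = 0.0751) and quantile normalization (adjusted p = 0.0639). The fits that left out a column of another group kept the change at 1.59, so they vary only the error.

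The *rrp6* columns could be compared with wild type only through the groups that both tables hold. No member was called by limma, where 0.433% of all genes were, and 4 of 10 were at an unadjusted p under 0.05, against 732 of all 6241 genes. *ADE17* stood at -1.31 ± 0.36 SE (adjusted p = 0.193) and *ADE3* at -1.07 ± 0.37 SE (adjusted p = 0.313). *ADE8* stood at 0.48, against a median of -0.59 for the 10 genes and 0.14 for all genes.

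The change with Chd1-Ume6 differed between the *rrp6* and *ume6* strains for *ADE17*. The difference of the 2 changes was 2.98 ± 0.35 SE (limma adjusted p = 0.0209), with 0.208% of all genes called and 0.176% called higher. For *MTD1* it was 1.92 ± 0.37 SE (adjusted p = 0.0844), and 9 of the 10 differences were above 0, against 47.1% of all genes, with a median of 0.66 beside -0.03 for all genes. The call was kept only without *rrp6* library 1 among the 10 fits that each left out 1 column, in which the difference stayed between 2.71 and 3.24 and the adjusted p between 0.0153 and 0.248. It was also lost with the replicate block (adjusted p = 0.0524) and after quantile normalization (adjusted p = 0.0537). The fits without a column of wild type with Chd1-Ume6 kept the difference at 2.98 and varied only the error. Without *rrp6* fusion library 1 the difference for *ADE4* was -0.25 in place of 0.21. This contrast uses no wild type column. The *rrp6* strains keep native *UME6*, at 10.9 and 9.38 FPKM without the fusion, and the *ume6* strains lack it. With Chd1-Ume6, *CHD1* was at 288 and 276 FPKM in *rrp6* and at 836 and 1075 in *ume6*. Loss of Rrp6, presence of native Ume6 and level of the fusion cannot be told apart in this difference.

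**Figure D5:**
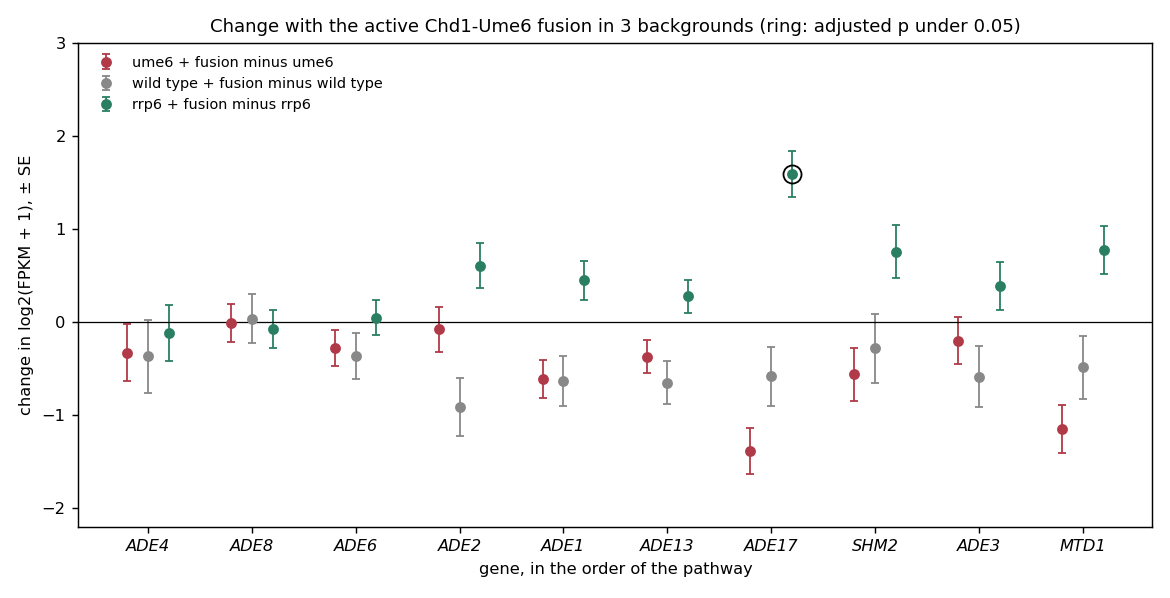
Change in log2(FPKM + 1) with Chd1-Ume6 in *ume6*, wild type and *rrp6* for the 10 genes in pathway order, with bars for ± SE from limma and a ring for an adjusted p under 0.05. *ADE17* is at -1.39 in *ume6* and at 1.59 in *rrp6*, the only ringed point.

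Pho2 also helps to control genes of phosphate supply, and 13 of these were listed. Their changes with Chd1-Ume6 had a median of -0.78 in *ume6*, with a range from -2.30 to -0.04, and a median of 0.66 in *rrp6*, with a range from -0.18 to 3.72. None of the 13 was called by limma in either. For active against dead fusion their median was -1.76 and 1 was called, the acid phosphatase gene *PHO5*, which fell by 4.77 on the log2 scale (limma adjusted p = 0.0219). In the single dead fusion column the 13 genes were themselves above *ume6*, with a median of 0.98 and a range from 0.21 to 3.70. *PHO5* was at 714 FPKM with the dead fusion, 122 and 105 in *ume6*, and 28.8 and 23.2 in *ume6* with Chd1-Ume6. The high-affinity phosphate transporter gene *PHO84* had 854.5 FPKM in *rrp6* library 1 but 107.5 in library 2, and 860.0 and 577 with the fusion. *ADE17* was higher in the same *rrp6* column as *PHO84*, and likewise within *ume6* with Chd1-Ume6 and within *rrp6* with it. Within *ume6* and within wild type with Chd1-Ume6 the order was opposite. *PHO84* was highest in wild type, at 2010 FPKM, where *ADE17* was at 40.2. Whether the phosphate genes' state has a part in these changes was not tested. *BAS1* was between 10.01 and 39.0 FPKM and *PHO2* between 14.1 and 29.1, and neither was called in any of the 12 comparisons.

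Of the other genes of purine and one-carbon metabolism, 41 were listed and all were in the fit. In *isw2 rpd3* against wild type 2 were called higher, 1 was called lower and 38 were not called. *GCV1* and *GCV2*, for subunits of the mitochondrial glycine cleavage complex, rose by 2.03 ± 0.36 SE (limma adjusted p = 0.0245) and 1.61 ± 0.32 SE (limma adjusted p = 0.0323). *IMD2*, an IMP dehydrogenase gene on the branch to GMP, fell by 2.39 (SE 0.39, limma adjusted p = 0.0192). It was at 31.4 FPKM there, 36.5 in *rpd3* and at least 81.5 in the other columns. Against *rpd3*, *GCV1* was the 1 of 41 called (2.72 ± 0.36 SE, limma adjusted p = 0.0222).

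In *ume6* against wild type, *GCV1* rose by 1.82 ± 0.33 SE (limma adjusted p = 0.0314), and the GMP synthase gene *GUA1* fell by 1.31 (SE 0.24, limma adjusted p = 0.0318), with 39 of 41 not called. *GUA1* had 805 FPKM in wild type, and 316 and 358 in *ume6*. *GCV1* had 20.45 FPKM in wild type, 89.0 and 55.7 in *ume6* and 86.6 in *isw2 rpd3*. All other comparisons called 0 of the 41 genes by limma. *GCV1*, *GCV2* and *GUA1* also carry TGACTC in their windows, with 1, 4 and 1 matches. *IMD2* has 0. Genes of the 41 that were not called carry it as well, such as *GCV3*, *LPD1* and *MET13* with 2 each, while others such as *SHM1* have 0.

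*ADE5,7*, the remaining gene of the route before inosine monophosphate besides *ADE16*, ran from 100.4 FPKM in *ume6* with Chd1-Ume6 to 441 in *isw2 rpd3*, and was at 347 in wild type. *ADE12*, which starts the branch to AMP, ran from 75.6 in *rrp6* to 378 in *isw2 rpd3*. Both are highest in *isw2 rpd3*, as 8 of the 10 genes are, though the share of all genes highest in that column was not counted. Neither was called in any of the 12 comparisons.

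Across the 15 columns, with each gene centred within its table, 42 of the 45 pairs of the 10 genes had a Pearson r above 0, with a median of 0.584 and a range from -0.0996 to 0.867. Without the *isw2 rpd3* column the median was 0.498. *ADE1*, *ADE2*, *MTD1* and *ADE13* followed the median profile of the 10 most closely, with r of 0.928, 0.902, 0.893 and 0.889, while *ADE8* had 0.408 and *ADE3* 0.262. Without the *isw2 rpd3* column the first 4 had 0.868, 0.833, 0.882 and 0.845, *ADE3* had 0.608, and the lowest were *ADE17* with 0.528 and *ADE8* with 0.477. The 5 other genes with the most similar profile were *SDT1*, a pyrimidine nucleotidase gene, with r of 0.840, *CUS1* with 0.789, *RDH54* with 0.781, *ADE5,7* with 0.767 and *MNN1* with 0.764. Without the *isw2 rpd3* column they had 0.734, 0.550, 0.612, 0.681 and 0.473. Pairs drawn from all genes were not measured beside those of the 10. The columns share groups and, within a table, their normalization, so these values describe likeness alone.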

How the data were processed

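The authors deposited log2 FPKM per gene, 8 columns in a table and 7 in a workbook, with no depth; 1 workbook sheet of *ume6*, though headed log2 per the file headers, was on a log10 scale (its SD was 0.311 times that of the other sheets, against 0.301 for log10) and was read as log10 FPKM. Among tools, the submitters' processing notes list Cufflinks 2.2.1, Cuffdiff, TopHat2, SAMtools and CASAVA without their roles. Neither a genome build nor strand use in counting is given in the sources used here. NA entries were taken as missing. The 17 labelled samples correspond to 15 columns: wild type and *isw2* each have 1 column for 2 isolates.

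Values were returned to FPKM and fitted as log2(FPKM + 1) with limma 3.58.1 in R 4.3.3, an abundance trend, 10 groups and a term for the table, over 6241 genes with a value in every column and at least 1 FPKM in at least 2. The fit left 4 residual degrees of freedom, and groups of 1 column took their spread from the groups of 2. The pseudocount understates changes of low genes. The script was tested on simulated data. Alternatives changed the pseudocount, filter, missing values, scaling, table term, replicate block and trend, or left out 1 column. The 10 genes and all lists were chosen with earlier results of these data known. Named are the 10 genes throughout, called genes of the other lists up to 4 a list, and the 5 non-members of highest r. Same-numbered *rrp6* columns deviated with r = -0.337 over genes, so the numbers were not taken as pairs. Motifs were searched in RefSeq's R64.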

Additional observations from a re-analysis of the deposited data

Results flagged for a closer look

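The change of *ADE17* with Chd1-Ume6 differed between the *rrp6* and *ume6* strains by 2.98 on the log2(FPKM + 1) scale (SE 0.35, limma adjusted p = 0.0209), with both *rrp6* fusion columns higher than both *rrp6* columns and both *ume6* fusion columns lower than both *ume6* columns. It was singled out because the difference between the strains was itself tested and called. The strains differ in Rrp6, in native Ume6 and in the RNA level of the fusion, which cannot be told apart here. The call was kept in 9 of 20 alternatives. It was lost under quantile normalization (adjusted p = 0.0537), with the replicate block (adjusted p = 0.0524) and in 9 of 10 fits without 1 column, where the adjusted p reached 0.248. Of the single changes, the one in *rrp6* was called (adjusted p = 0.0351) and kept in 9 of 20 alternatives, and the one in *ume6* was not called (adjusted p = 0.0765). The paralog *ADE16* had a difference of 0.02 (adjusted p = 0.992), and the 13 phosphate genes had a median difference of 1.42, whose part in the *ADE17* result was not tested.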

How the results depend on the processing

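Of the changes of single members under the alternatives, 27 no longer passed the threshold and 2366 were counted as kept on their side of it. Another 7, none of them called, changed sign with a shift larger than the replicate spread, and 0 called changes reversed. Shifts that kept their sign were not measured against that spread. They could be large, as for *ADE2* in *rrp6* against wild type, at -0.96 in the main fit and down to -1.63. The count of members called with Chd1-Ume6 in *rrp6* went from 1 to 0 under quantile normalization and median ratio scaling, and lay between 0 and 1 with 1 column left out. The count in *isw2 rpd3* against *rpd3* went from 2 to 0 under quantile normalization and to 1 without the table term, and lay between 1 and 2 with 1 column left out. The count for the difference between *rrp6* and *ume6* went from 1 to 0 under quantile normalization and lay between 0 and 1 with 1 column left out; the cause was not tested. The *ADE17* call in *isw2 rpd3* against wild type had an adjusted p between 0.005 and 0.0182 in these 10 fits. None of them leaves out either compared column, so they vary only the error taken from other groups, and the change of 2.70 itself has no replicate check.

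Isolate numbers are carried by the *rrp6* columns and few others. With the replicate block the difference for *ADE17* had an adjusted p of 0.0524, so that count was 0, and the block changed no other member call. Crossed pairing, added after the data were seen because same-numbered deviations correlated at r = -0.337, gave 150 genes called with Chd1-Ume6 in *rrp6*, where 44 were called without it, and 88 for the difference, where 13 were.

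Counts over all genes moved by over 1.5 times in every comparison under some alternative: from 133 to between 23 and 269 in *ume6* against wild type, from 14 to between 1 and 23 with Chd1-Ume6 in *ume6*, from 44 to between 0 and 150 with it in *rrp6*, and from 237 to between 108 and 317 in *isw2 rpd3* against wild type. Median ratio scaling brought the median of all genes from 0.14 to 0.003 in *isw2 rpd3* against *rpd3*. Depth is unknown, so it sets no limit that can be given here.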
